A study of Mus musculus with 2 samples.

Results

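Mir219a-1, Mir219a-2 and Mir338 are 3 mouse microRNA (miRNA) genes known for their rise in maturing oligodendrocytes, the cells that wrap axons in myelin. Their rows were taken by gene symbol from tables of 1973 miRNA genes. All 3 had a row, and all 3 were among the 370 genes that reached 10 counts in both libraries, which are called detected here. The libraries held small RNA below 30 nt from whole forebrain of B6NCrl embryos at embryonic day 15.5, untreated and of no mutant genotype named in the labels. There was 1 group with 2 biological replicates. Replicate 2 was made from 62 pooled embryos of both sexes and replicate 1 from 78. There was thus no second condition to compare, and differences below are between these libraries only.

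MicroRNAs are cut from hairpin precursors, and bases 2 to 8 of the mature strand, the seed, guide it to messenger RNAs that it represses. In mouse and zebrafish, miR-219a and miR-338 promote the exit of oligodendrocyte precursors from division. They repress regulators such as Pdgfra, the growth factor receptor of the precursors, and the transcription factors Sox6 and Hes5. Precursors of this lineage first arise in the ventral forebrain before birth, while myelin forms mainly after birth. Neurons also make miR-219a and miR-338: in mouse, miR-219a has been linked to the circadian clock of the hypothalamus, and Mir338 lies within a gene of the nervous system, Aatk.

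The mature sequences show which genes share a product, and are printed from RefSeq (build GRCm38.p6) with the seed in capitals. Both Mir219a genes carry miR-219a-5p, base for base. The arm on the other side of the hairpin, miR-219a-1-3p, was listed for Mir219a-1. No arm was listed for that side of the Mir219a-2 hairpin, which does not show that none is made. Mir338 carries a product on each arm.
miR-219a-5p: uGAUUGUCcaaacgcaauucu
miR-219a-1-3p: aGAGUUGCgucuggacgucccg
miR-338-3p: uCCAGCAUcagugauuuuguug
miR-338-5p: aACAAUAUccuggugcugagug
The seed GAUUGUC was found in no mature mouse miRNA of the RefSeq table other than miR-219a-5p. The seeds of miR-338-3p (CCAGCAU), miR-338-5p (ACAAUAU) and miR-219a-1-3p (GAGUUGC) likewise each belonged to 1 gene. By the seeds of their listed arms, the 3 genes therefore form a miR-219a-5p pair and Mir338 on its own.

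The hairpins show where the Mir219a copies are the same and where they differ, and are printed with their listed mature arms in capitals.
Mir219a-1 hairpin: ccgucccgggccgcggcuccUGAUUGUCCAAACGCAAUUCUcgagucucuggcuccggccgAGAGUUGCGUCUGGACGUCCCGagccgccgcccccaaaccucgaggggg
Mir219a-2 hairpin: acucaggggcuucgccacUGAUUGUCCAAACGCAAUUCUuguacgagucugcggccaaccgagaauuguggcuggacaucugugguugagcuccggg
Mir338 hairpin: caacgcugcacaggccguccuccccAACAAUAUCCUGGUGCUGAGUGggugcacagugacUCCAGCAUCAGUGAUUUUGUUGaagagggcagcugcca
The Mir219a hairpins were 63.2% identical over a global alignment of 114 positions. Their longest shared run was 22 bases, which are miR-219a-5p and the base before it. Outside that run they differ: of the 22 bases of miR-219a-1-3p, the longest run found in the Mir219a-2 hairpin was 6 bases. A read of miR-219a-5p that lies wholly inside the shared run matches both genes equally, whereas each arm of Mir338 was found in no other hairpin of the table.

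Reads placed at more than 1 locus were kept out of the gene rows by the authors, in a row that took 42.4% of the reads of replicate 2 and 44.6% of those of replicate 1. How many of them were miR-219a-5p cannot be read from the tables. The counts of the Mir219a rows may thus understate miR-219a-5p, and they do not separate the arms. Their part in the levels below was not tested.

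The genes lie at 3 separate loci, given here in mm10 coordinates counted from 1 with the GENCODE M21 annotation. Mir219a-1 (ENSMUSG00000065555.1) is on the minus strand of chromosome 17 at 34024983 to 34025092, 303 bp from Ring1, a Polycomb subunit gene. It overlaps an exon of the long noncoding RNA Gm26940 on the same strand. Mir219a-2 (ENSMUSG00000065485.1) is on the minus strand of chromosome 2 at 29845631 to 29845727. It is intergenic apart from an antisense miRNA gene, with Urm1 629 bp away on the other strand. Mir338 (ENSMUSG00000065600.1) is on the minus strand of chromosome 11 at 120014765 to 120014862, within an intron of Aatk, which is read on the same strand. Each hairpin has an annotated miRNA gene facing it on the opposite strand, Mir219c at Mir219a-1, Mir219b at Mir219a-2 and Mir3065 at Mir338.

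Replicate 2 held 4753555 counts on the strand of a miRNA gene and replicate 1 held 4464927. Levels are normalised counts (CPM), which sum to 1000000 over all gene rows of a library. A count of 0 allows a level of up to 3 counts, which is 0.631 CPM for replicate 2 and 0.672 CPM for replicate 1. The labels call the pools biological replicates but do not say whether they shared a litter or a library batch, so their spread may have a technical share. No molecular identifiers are named in the sources, and the intervals, limits and tests below therefore cover error from counting alone.

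Mir219a-1 and Mir338 stood at nearly equal, moderate levels, and Mir219a-2 far below them. Mir219a-1 had 1104 counts, or 232 CPM, in replicate 2 (Clopper-Pearson 95% interval 219 to 246), and 885 counts, or 198 CPM, in replicate 1 (185 to 212). Its mean was 215 ± 24.1 CPM (SD, n = 2). Mir338 had 992 counts, or 209 CPM, in replicate 2 (196 to 222), and 898 counts, or 201 CPM, in replicate 1 (188 to 215). Its mean was 205 ± 5.35 CPM (SD, n = 2), so its libraries lay closer together than those of Mir219a-1.

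Mir219a-2, the copy on chromosome 2, was the lowest in both libraries. It had 99 counts, or 20.8 CPM, in replicate 2 (16.9 to 25.4), and 96 counts, or 21.5 CPM, in replicate 1 (17.4 to 26.3). Its mean was 21.2 ± 0.477 CPM (SD, n = 2), and its highest library lay far below the lowest library of either other gene.

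**Figure D1:**
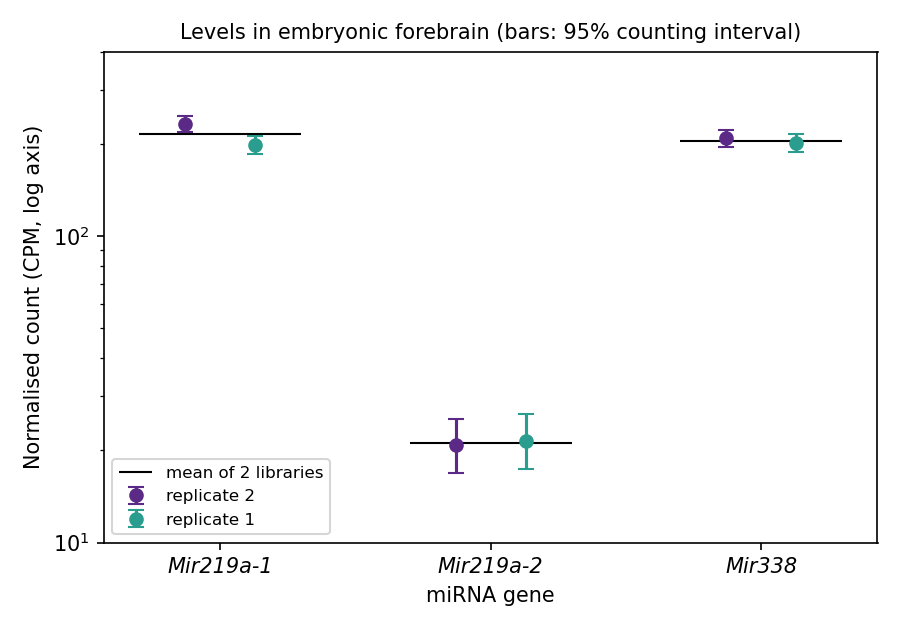
Normalised count (CPM, log axis) of Mir219a-1, Mir219a-2 and Mir338 in replicate 2 (left point) and replicate 1 (right point) of embryonic forebrain, with 95% Clopper-Pearson intervals and the mean as a line. Mir219a-1 and Mir338 lie near 200 CPM and Mir219a-2 near 21.2 CPM in both libraries.

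Between the highest genes the order was not settled. Mir219a-1 exceeded Mir338 by 10.3 CPM on average, less than the SD of Mir219a-1. It was 1.11 times Mir338 in replicate 2 and 0.986 times Mir338 in replicate 1, so the libraries placed the genes in opposite order. Mir219a-1 made up 52.7% of the counts of these genes in replicate 2 (95% interval 50.5 to 54.8) and 49.6% in replicate 1 (47.3 to 52.0). These shares do not depend on how the libraries are scaled, and their intervals overlap. Divided by hairpin length, the mean level was 196 CPM per 100 nt for Mir219a-1 (110 nt), 209 CPM per 100 nt for Mir338 (98 nt) and 21.8 CPM per 100 nt for Mir219a-2 (97 nt), which turns the order of the top genes round. The step down to Mir219a-2 held on either scale.

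In the whole profile, Mir219a-1 ranked 147th and Mir338 154th of the 1973 rows by mean level, with 6 genes between them, and Mir219a-2 ranked 273rd. The median of the 370 detected genes was 111 CPM, with quartiles at 18.9 and 731 CPM. Mir219a-1 exceeded 60.3% of the detected genes, Mir338 exceeded 58.4% and Mir219a-2 exceeded 26.2%. The most abundant gene of the profile, Mir99a, exceeded Mir219a-1 by 1379-fold. Together the 3 genes took up 0.0462% of replicate 2's counts and 0.0421% of replicate 1's. All 3 genes were thus present in the embryonic forebrain, far from its most abundant miRNAs. In whole tissue, fewer cells that make a miRNA and less of it per cell cannot be told apart.

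**Figure D2:**
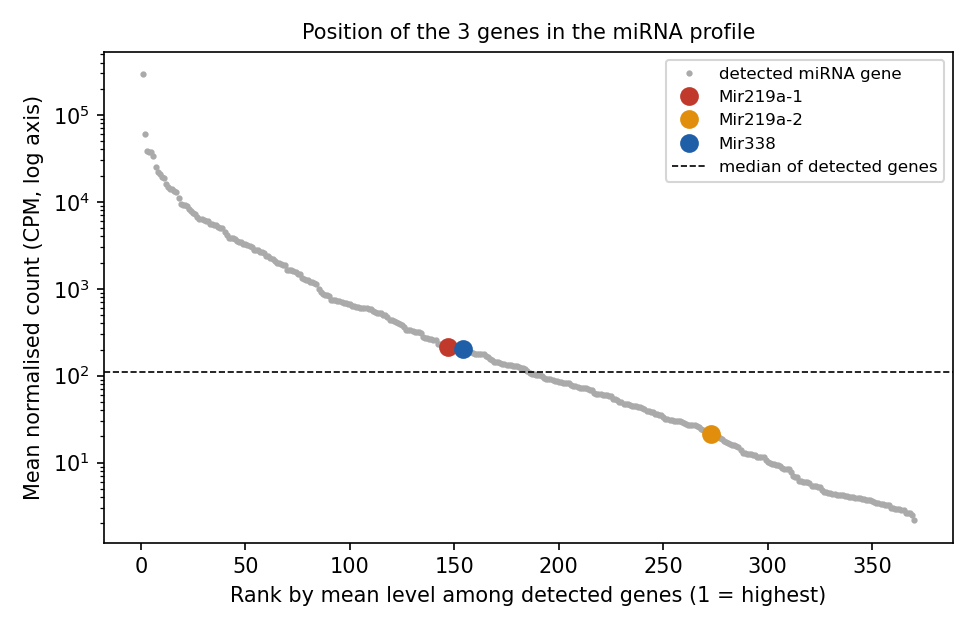
Mean normalised count (CPM, log axis) of the 370 detected miRNA genes in order of rank, with Mir219a-1, Mir219a-2 and Mir338 as large points and the median of 111 CPM as a dashed line. Mir219a-1 and Mir338 sit side by side above the median, and Mir219a-2 sits below it.

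Genes with nearly the same pair of levels were found by the distance between log2(CPM + 1) values over the 2 libraries. The nearest to Mir219a-1 was Mir32, at 230 CPM in replicate 2 and 193 CPM in replicate 1 (distance 0.044). Mir363 (0.074) and Mir10a (0.089) followed. Mir338 was nearest to Mir20b, at 211 CPM in replicate 2 and 210 CPM in replicate 1 (distance 0.067), then to Mir672 (0.14) and Mir32 (0.15). Mir219a-2 was nearest to Mir8112 (0.16), Mir551b (0.18) and Mir7689 (0.22). These neighbours share a level in 2 libraries of 1 tissue, and nothing more was compared.

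The copies of Mir219a split their counts unequally. Mir219a-1 held 1104 of 1203 counts in replicate 2, or 91.8% (95% interval 90.1 to 93.3), and 885 of 981 in replicate 1, or 90.2% (88.2 to 92.0). Mir219a-1 was therefore 11.2 times Mir219a-2 in replicate 2 and 9.22 times in replicate 1. The split was the same within counting error in both pools. Summed over both genes, Mir219a reached 253 CPM in replicate 2 and 220 CPM in replicate 1, or 236 ± 23.6 CPM (SD, n = 2). Mir338 held 45.2% of the counts of the 3 genes in replicate 2 (43.1 to 47.3) and 47.8% in replicate 1 (45.5 to 50.1), so it stood close to parity with the Mir219a rows combined. This parity is of counted rows only. Reads of miR-219a-5p inside the run shared by the copies match both and were open to loss, whereas the arms of Mir338 were found in no other hairpin.

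Uneven splits were common among duplicated miRNA genes. Counting Mir219a, 18 pairs of rows numbered 1 and 2, with no further numbered copy, had at least 100 counts in each library. The higher copy of each was chosen by its mean level, so a mean share above parity is fixed by the choice and no test was made. Averaged over the libraries, that share ran from 53.5% to 99.1% with a median of 73.9%, and Mir219a, at 91.0%, was the 6th most uneven pair. Mir181b-2 was the most uneven, at 99.1% in replicate 2 (98.9 to 99.3) and 99.1% in replicate 1 (99.0 to 99.3), and the Mir194 and Mir92 pairs also lay above Mir219a by their intervals in both libraries. Mir181a-1 held 89.8% in replicate 2 (89.5 to 90.1) and 92.8% in replicate 1 (92.5 to 93.0), and its interval overlapped that of Mir219a-1 in replicate 2 and lay above it in replicate 1. The intervals of Mir103 and Mir26a overlapped those of Mir219a in a library or more. The other 11 pairs lay below it in both, among them Mir129-2, at 76.6% in replicate 2 and 76.8% in replicate 1, and Mir138-1, at 66.7% in replicate 2 and 66.7% in replicate 1. In the 17 pairs with both hairpins in the RefSeq table, the longest run shared by the copies was between 22 and 28 bases, so reads that match both copies were open to loss in each of them, in proportions that the tables do not give.

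**Figure D3:**
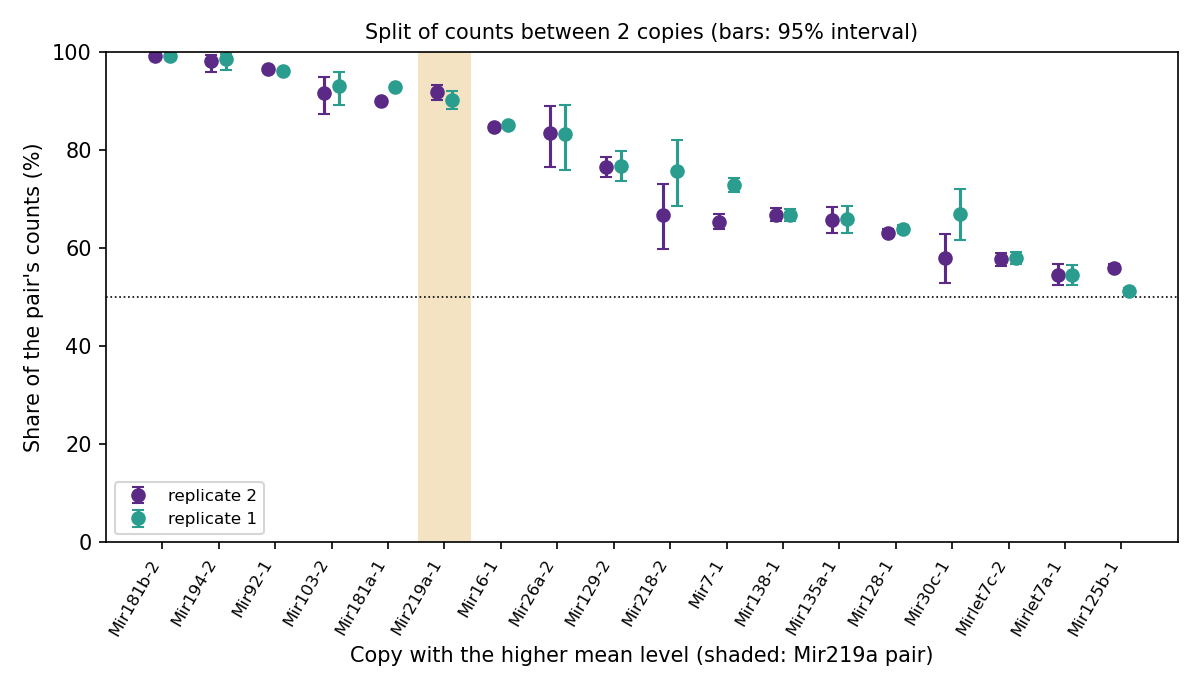
Share (%) of the counts of a gene pair that fell on its copy with the higher mean level, in replicate 2 (left point) and replicate 1 (right point), for 18 pairs, with 95% Clopper-Pearson intervals and a dotted line at equal shares. Mir219a-1 (shaded) lies at 91.8% and 90.2%, the 6th of the pairs, which run from 99.1% down to 53.5% on average.

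Between the pools, Mir219a-1 differed beyond counting error and the other genes did not pass the test. Each gene's counts were set by an exact binomial test, two-sided, against the libraries' shares of all gene counts, with Benjamini-Hochberg adjustment over all genes with at least 10 counts in total. Of 457 genes tested, 166 were called at an adjusted p below 0.05, or 36.3% (19.3% higher and 17.1% lower in replicate 2), so a call for 1 of 3 genes is near that background. Of the called genes, 53.0% were higher in replicate 2, a share that became 42.9% under TMM scaling (trimmed-mean factors) and 69.1% under a total that omits Mir99a. Mir219a-1 was the gene called, at a log2 ratio of 0.23, higher in replicate 2 (95% interval 0.10 to 0.36, exact binomial test, adjusted p = 0.00172). The log2 ratio of Mir338 was 0.053 (interval -0.078 to 0.19, adjusted p = 0.620 by the same exact test). That of Mir219a-2 was -0.046 (interval -0.47 to 0.37, adjusted p = 0.914 by the same exact test), and with its low counts a change of smaller size than that interval was not detectable.

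Mir219a-1 differed by slightly more than the typical gene and the others by less. The median absolute log2 ratio of the detected genes was 0.19. The ratio of Mir219a-1 was larger than 58.6% of them, that of Mir338 larger than 17.6% and that of Mir219a-2 larger than 14.6%. The test compares the libraries, not conditions. The direction of Mir219a-2, which was not called, turned to 0.013 under the total that omits Mir99a.

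**Figure D4:**
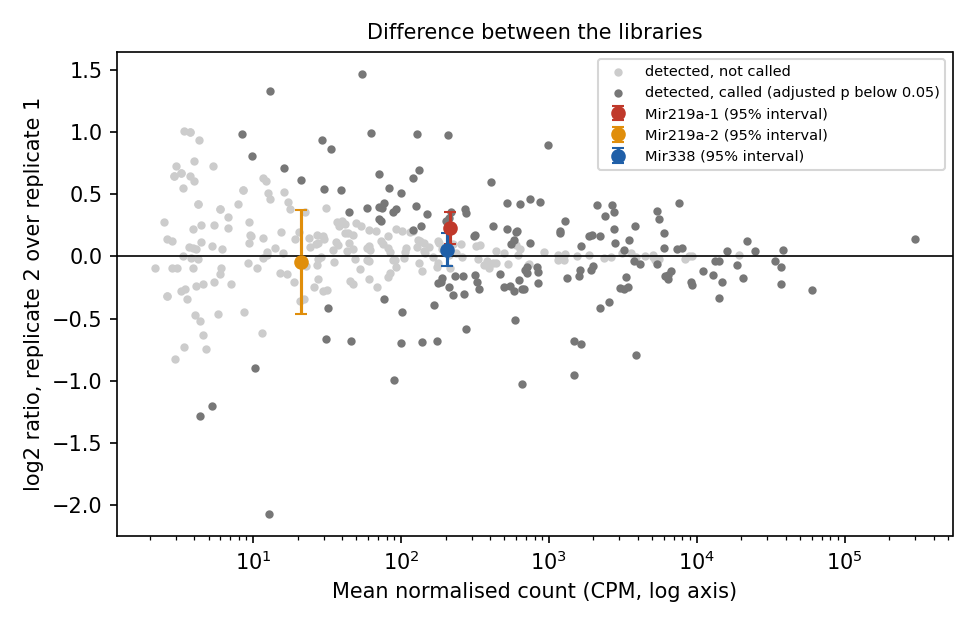
log2 ratio of replicate 2 over replicate 1 against mean normalised count (CPM, log axis) for the detected miRNA genes, dark where called at an adjusted p below 0.05, with 95% intervals for Mir219a-1, Mir219a-2 and Mir338. Mir219a-1 lies at 0.23 with its interval above 0, and the intervals of Mir338 and Mir219a-2 include 0.

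The opposite strand of these loci had few counts. At Mir338, where the antisense gene Mir3065 covers 87 of the 98 bases of the hairpin, 1 count fell on the opposite strand in replicate 2 (0.101% of the counts on either strand, 95% interval 0.00255 to 0.560) and 0 in replicate 1 (which allows a share of up to 0.334%). Signal from Mir3065 was thus not detectable at this depth, against 992 and 898 counts for Mir338 itself. At Mir219a-2, facing Mir219b, there were 0 opposite counts in replicate 2, which allows a share of up to 3.03%, and 3 counts in replicate 1, at the limit of detection. At Mir219a-1, facing Mir219c, there were 6 opposite counts in replicate 2 (0.541%, 0.199 to 1.17) and 8 in replicate 1 (0.896%, 0.388 to 1.76). Mir219b, Mir219c and Mir3065 had no row of their own, so these counts are the closest view of their strands in these tables. The run shared by the Mir219a copies is shared on the opposite strand too. Reads inside it match both loci and were open to loss, so the counts facing Mir219a-1 and Mir219a-2 may understate Mir219c and Mir219b.

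Among miRNAs linked to oligodendrocyte differentiation, the 3 genes spanned the middle and the bottom of the range. All 8 genes of this list were detected, with a median level of 213 CPM, where all detected genes had 111 CPM. Mir23a, which supports myelination by repressing lamin B1, was the highest at 5517 ± 64.8 CPM (SD, n = 2). Mir138-1, which acts early in differentiation together with miR-219a and miR-338 in mouse, followed at 726 ± 25.4 CPM (SD, n = 2). Mir138-2 stood at 362 ± 12.98 CPM and Mir32 at 211 ± 26.4 CPM (SD, n = 2 each), and Mir146 at 37.7 ± 1.71 CPM was the only gene of the list besides Mir219a-2 below the level of Mir338. Mir219a-1 and Mir32 were called, both higher in replicate 2 by the exact binomial test, and 6 were not called, so 2 of 8 were called where 36.3% of all genes tested were. The list's median log2 ratio was 0.015, against 0.046 for all detected genes.

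Genes linked to oligodendrocyte precursors and their division stood higher by their median, but not throughout. The 11 matched genes had a median of 733 CPM, led by Mir17 (33935 ± 596 CPM) and Mir20a (12929 ± 928 CPM, SD, n = 2 each), members of the proliferation-linked Mir17-92 cluster. Mir19a (74.8 CPM) and Mir19b-1 (12.2 CPM) of the same cluster, and Mir9-2 (3.26 CPM), lay below the mean level of Mir338. Mir19b-1 and Mir9-2 also lay below Mir219a-2. Mir19b-1 is a numbered copy of a duplicated gene, so reads that match both copies were open to loss. Its level may thus understate its product. Between the libraries 2 of 11 were called higher and 4 lower in replicate 2, where 19.3% and 17.1% of all genes tested were, with a median log2 ratio of -0.036. Most genes of this list are also expressed by other dividing or neural cells, and Mir9 genes share sequence, so the list describes levels and does not mark precursors alone.

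Lists of miRNAs linked to other cells of the forebrain were measured beside them. Their genes need not be limited to those cells, so the sums do not measure cell numbers. The neuron list had 11 of 14 matched genes detected, with levels that summed to 18844 CPM (replicate 2) and 19456 CPM (replicate 1). The genes not detected were Mir124a-1, Mir124a-2 and Mir124a-3, at mean levels of 2.80, 2.25 and 1.05 CPM, so the sum holds almost nothing from Mir124a. How many Mir124a reads were placed at more than 1 locus cannot be read from the tables. It was led by Mir137 (9092 ± 926 CPM) and Mir139 (3862 ± 15.0 CPM, SD, n = 2 each). Calls numbered 5 higher and 2 lower in replicate 2 among its 14 tested genes, beside 19.3% and 17.1% of all genes tested. The higher calls include Mir124a-3, which was not detected (10 counts in replicate 2 and 0 in replicate 1). The list's median log2 ratio was 0.13 over detected genes and 0.40 over all tested ones. The astrocyte list had 3 of 5 genes detected, summing to 4594 CPM in replicate 2 and 3856 CPM in replicate 1, with 3 of the 5 called higher and 0 lower in replicate 2, beside 19.3% and 17.1% of all genes tested. The calls were Mir21a, Mir29c and Mir29b-2, the last not detected (21 counts in replicate 2 and 5 in replicate 1). Mir21a stood at 4161 CPM in replicate 2 and 3505 CPM in replicate 1, and Mir29a, which was not called (exact binomial test, adjusted p = 0.207), at 263 CPM (replicate 2) and 245 CPM (replicate 1). The sum of the 3 oligodendrocyte genes was 462 CPM in replicate 2 and 421 CPM in replicate 1.

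Genes of the blood and vessel lists were also present. Endothelial Mir126a stood at 16377 CPM in replicate 2 and 15856 CPM in replicate 1, called higher. The erythroid genes, led by Mir451a (92.0 ± 10.04 CPM) and Mir144 (44.4 ± 7.70 CPM, SD, n = 2 each), summed to 165 CPM in replicate 2 and 140 CPM in replicate 1, with Mir144 called higher and 2 not called. Of the immune genes, Mir223 was called higher and Mir155 lower in replicate 2, at sums of 167 CPM (replicate 2) and 164 CPM (replicate 1). The Mir142b row was at 0 in both. Other Mir142 names on the list matched no row by symbol, so this 0 does not cover them. Beside the calls of these lists, 19.3% of all genes tested were called higher and 17.1% lower in replicate 2. Scaled to all gene rows, the astrocyte, endothelial, erythroid and immune sums were higher in replicate 2, as Mir219a-1 was. The astrocyte sum was mostly Mir21a. The sums of the oligodendrocyte differentiation (7263 against 7328 CPM), precursor and neuron lists were lower in replicate 2 than in replicate 1. These sums were not run under other scaling, which took the log2 ratio of Mir338 from 0.053 to 0.013 (TMM) or 0.11 (without Mir99a). The direction of small differences, such as those of the immune and differentiation sums, is therefore not settled. The part of these lists in the difference of Mir219a-1 was not tested.

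**Figure D5:**
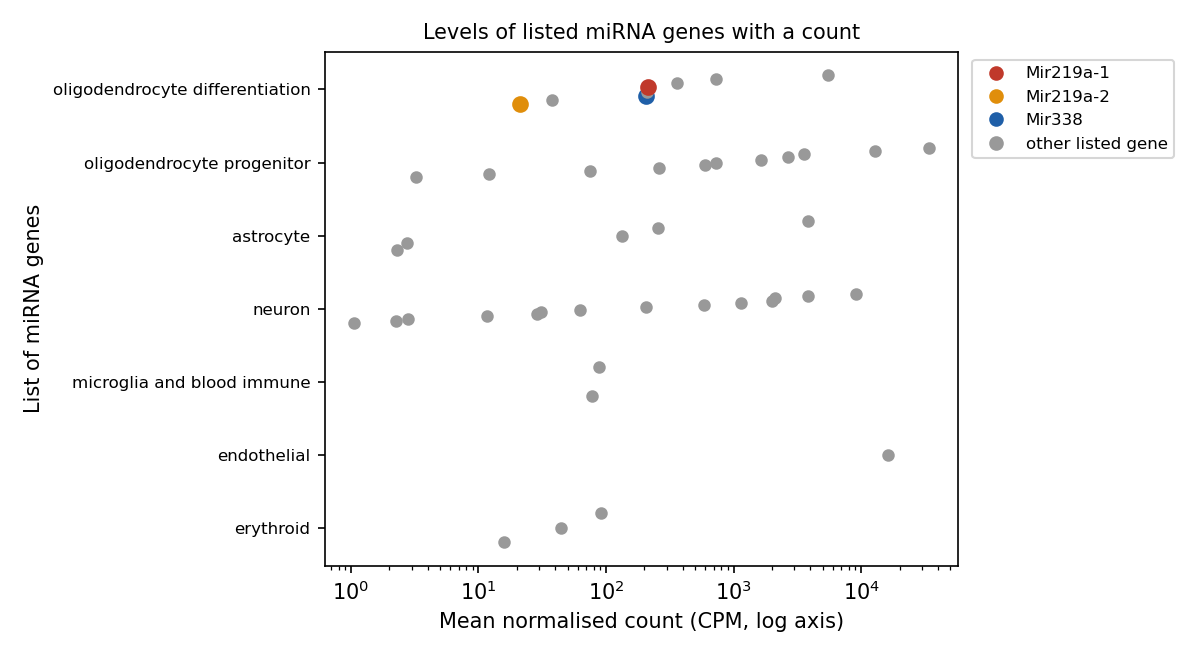
Mean normalised count (CPM, log axis) of each listed miRNA gene with a count, by list, with Mir219a-1, Mir219a-2 and Mir338 in colour. In the oligodendrocyte differentiation list Mir219a-2 is the lowest gene, at 21.2 CPM, and Mir23a the highest, at 5517 CPM.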

How the data were processed

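The authors deposited whole-number read counts per miRNA gene for each library, with no normalization and 1 library per table. Per the deposited README text, they come from alignments to mm10 with GENCODE M4, with the aligner and counter not given in the sources used here. Columns hold counts on either strand and on each strand, and the strand with the larger total was taken as that of the RNA. The 4 rows that name no gene stayed out of totals. Symbols came from GENCODE M21 by gene identifier, which 1894 of 1973 rows matched, and sequences from RefSeq.

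CPM was the count over the sum of gene rows. Log2 ratios had 0.5 counts added, and shares had Clopper-Pearson 95% intervals (scipy 1.17.1). edgeR's quasi-likelihood test has no residual degrees of freedom here, so the exact binomial test was used, after it was tested on simulated data. The simulated libraries held counting error alone, so they cannot show how the test behaves where pools also differ otherwise. Alternatives were TMM (edgeR 4.0.16) and DESeq2 1.42.0 scaling, other count minimums and added counts, a total without Mir99a, counts of either strand, and leaving out each replicate.

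Named genes were the 3 members, miRNA genes overlapping them or within 10 kb, genes sharing a seed, the 3 detected genes nearest in level to each, and up to 2 of highest mean level in each of 7 marker lists. Mir99a, Mir138-2, Mir32, Mir146, Mir142b, Mir19a, Mir19b-1, Mir9-2, Mir124a-1, Mir124a-2, Mir124a-3, Mir29b-2, Mir29c and the copy pairs were added after values were seen. The members and lists were chosen with earlier results of these data known.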

Additional observations from a re-analysis of the deposited data

Results flagged for a closer look

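Reads on the opposite strand of Mir219a-1 were outside the main measurement and exceeded 3 counts in both libraries, with 6 in replicate 2 and 8 in replicate 1. Of the 280 miRNA genes with at least 100 counts on either strand in each library, 17 had more than 3 opposite counts in both, and the median opposite share was 0% in replicate 2 and 0% in replicate 1. The opposite share of Mir219a-1 exceeded that of 93.9% of these genes in replicate 2 and 95% in replicate 1. With a median of 0%, few counts suffice for a high rank. Mir338 exceeded 91.4% of these genes in replicate 2 on 1 opposite count, and 0% in replicate 1 on 0 counts. Over all gene rows the opposite strand held 1.49% of counts in replicate 2 and 1.59% in replicate 1.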

How the results depend on the processing

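The library differences of the 3 genes kept their side of the threshold under all 7 alternatives. Of these, the change in added counts entered the ratio only and could not change a call. Other count minimums changed only the adjustment of p. Only Mir219a-2, never called, changed sign, to 0.013 without Mir99a in the total. For Mir219a-1 the log2 ratio was 0.19 with TMM scaling, 0.20 with DESeq2 size factors and 0.29 without Mir99a in the total, with adjusted p between 4.08e-05 and 0.0118 over the alternatives by the exact binomial test. Without Mir99a in the total, mean levels moved by construction to 307 CPM for Mir219a-1, 291.6 CPM for Mir338 and 30.1 CPM for Mir219a-2. Per 100 nt of hairpin, Mir219a-2 moved from 21.2 to 21.8 CPM, beyond its small SD of 0.477 CPM. Mir219a-1 changed more, from 215 to 196 CPM, but stayed within its SD of 24.1 CPM. Other levels and shares moved by less than 1 SD under the alternatives run. For a left-out replicate this is fixed by arithmetic at n = 2. TMM and DESeq2 factors scale the libraries in opposite directions, which nearly keeps the mean by construction. Leaving out a replicate gave 198 to 232 CPM for Mir219a-1, 201 to 209 CPM for Mir338 and 20.8 to 21.5 CPM for Mir219a-2. With 1 library left there is no difference to test. No paired analysis was possible because there was 1 group only. Depth limits Mir219a-2 most, whose ratio rests on 99 counts in replicate 2 and 96 in replicate 1.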
